A study of Mus musculus with 4 samples.

Results

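The 10 genes described here encode the apolipoproteins Apoa1, Apoa2, Apoa4, Apoa5, Apob, Apoc1, Apoc2, Apoc3 and Apoe, and Mttp, the microsomal protein that loads lipid onto apolipoprotein B. They were chosen by name for their role in lipoproteins, with earlier results of these data known. Each had 1 entry among the 22103 entries of the expression table. RNA-seq of whole liver was compared between 2 wild type (WT) littermates and 2 mice with hepatocyte deletion of Brg1 (Brg1 LKO, called KO in the labels), and the question was how the loss of Brg1, the ATPase of a chromatin remodelling complex encoded by Smarca4, altered liver transcription after alcohol. The Brg1 LKO mice carried floxed Smarca4 alleles and an albumin promoter driven Cre, which is active in hepatocytes, so that the other cells of the liver kept the gene. The labels describe the WT mice no further than as WT, the study calls them littermates, and whether they carried floxed alleles or Cre was not given in the sources used here. All 4 mice were exposed to alcohol for 15 days by the labels, in the NIAAA model, which joins feeding of an ethanol liquid diet to a single ethanol gavage. The methods of the study give male mice of 8 weeks. Livers without alcohol were not analysed here, so the comparison was one of genotype within alcohol-fed mice.

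The liver exports triglyceride in very low density lipoprotein (VLDL), which is built around a single molecule of apolipoprotein B as Mttp transfers lipid to it in the endoplasmic reticulum. The exchangeable apolipoproteins move between VLDL and high density lipoprotein (HDL): Apoa1 and Apoa2 form the body of HDL, Apoc2 activates lipoprotein lipase, Apoc1 and Apoc3 slow the clearance of triglyceride, Apoa5 favours it, and Apoe is the ligand through which remnants are taken up. Apoa4 is made in the intestine and, in mice, also in the liver, where it is known to follow hepatic lipid content. In the NIAAA model the study reported less liver triglyceride in Brg1 LKO than in WT mice. Its relation to Apoa4 was not tested here.

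The genes lie in part in clusters, and the positions here are those of GENCODE M21 on GRCm38. Apoa1 (chr9:46228580-46230466, plus strand), Apoc3 (chr9:46232933-46235636, minus strand), Apoa4 (chr9:46240696-46243459, plus strand) and Apoa5 (chr9:46268633-46271919, plus strand) lie within 43.3 kb of chromosome 9. Apoe (chr7:19696109-19699188), Apoc1 (chr7:19689481-19692660) and Apoc2 (chr7:19671579-19677941) lie within 27.6 kb of chromosome 7, all on the minus strand. Apoa2 (chr1:171225054-171226379, plus strand), Apob (chr12:7977648-8016835, plus strand, 29 exons) and Mttp (chr3:138089854-138144968, minus strand, 20 exons) stand alone. Smarca4, the deleted gene, is also on chromosome 9, 24.5 Mb from Apoa1.

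RefSeq promoter windows of GRCm38.p6 were found for 8 of the 10 genes, and not for Apoc1 and Apoc3. The RefSeq start lay 148 bases from the GENCODE gene start for Apoa4, 50 for Apoa1, 29 for Apob and 1550 for Mttp. The stretches that lie before the GENCODE gene start are shown for Apoa4 and Apob, whose Brg1 LKO and WT values did not overlap, and for Apoa1, the neighbour of Apoa4 whose values overlapped. Capitals mark the motifs found. These are the plus strand of chr9:46240594-46240695, chr12:7977427-7977647 and chr9:46228380-46228579.
Apoa4: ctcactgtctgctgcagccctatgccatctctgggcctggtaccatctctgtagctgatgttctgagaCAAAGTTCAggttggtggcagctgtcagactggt
Apob: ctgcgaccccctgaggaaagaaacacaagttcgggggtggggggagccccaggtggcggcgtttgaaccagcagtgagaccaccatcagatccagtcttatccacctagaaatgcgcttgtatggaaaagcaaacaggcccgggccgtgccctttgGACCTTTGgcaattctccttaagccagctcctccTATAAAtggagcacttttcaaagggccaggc
Apoa1: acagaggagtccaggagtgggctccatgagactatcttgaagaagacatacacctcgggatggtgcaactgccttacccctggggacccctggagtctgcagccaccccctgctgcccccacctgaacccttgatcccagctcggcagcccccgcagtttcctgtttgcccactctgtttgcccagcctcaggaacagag

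The motifs were searched on both strands of the whole 300-base windows. They were chosen after these sequences were seen, so the shares over all windows are a description and no test of enrichment. CAAAGTNCA, the form of site bound by the hepatocyte nuclear receptor HNF4α, was in the window of Apoa4 alone among the 8. It was in 1.41% of 32851 RefSeq promoter windows of the same length. In Apoa4 it starts 34 bases before the GENCODE gene start, at -182 from the RefSeq start. CAAAGGTC, a half-site of the nuclear receptor family with its preceding bases, was in the window of Apob alone among the 8, on the minus strand (GACCTTTG as printed), and in 1.17% of all windows. TATAAA was in the windows of Apob, Apoa2 and Apoa5, against 13.6% of all windows. In Apob it starts 31 bases before the GENCODE gene start, at -60 from the RefSeq start. In Apoa2 it was at -212 and in Apoa5 at -56, from a start that both annotations share. The window of Apoa2 also held TGTTTAC, a FOXA motif found in 3.65% of all windows. The E-box CACGTG was in the window of Apoa5 (7.15% of all windows). AGGTCA, which overlaps CAAAGGTC where an A follows, and GTTAAT were both in the window of Apoc2 (16.3% and 7.10% of all windows). The window of Apoa1 held none of the 7 motifs. A match of letters is not evidence that a factor binds there, and binding was not measured in these samples.

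Values are FPKM, which divide the reads of a transcript by its length and by the total of its library. Library totals recovered from the steps of low FPKM values were 72577305 to 80903111 reads, and the gene with the fewest reads of the 10, Mttp, had an estimated 10331 to 13623 reads per library, so counting error was small for each of them. Smarca4 checked the labels, at 1.78 and 1.95 FPKM in WT and 0.608 and 0.579 FPKM in Brg1 LKO, a log2 difference of -1.50 (SE 0.34). Whole liver RNA holds all cell types, and fewer cells of a type cannot be told apart from less RNA per cell. The hepatocyte markers were high in every library, with Alb at 10710 to 12486 FPKM.

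The 10 genes were among the most abundant transcripts of these livers. Apoe, at 14067 to 16999 FPKM, ranked 4 in the whole table by mean level. Apoa1, Apoc1, Apoa2 and Apoc3 followed at ranks 35, 42, 45 and 54. Apoc2 ranked 119, Apoa4 170, Apoa5 229, Apob 412 and Mttp 557. The mean of Apoe was 8.37-fold that of Apoa1, with no overlap between their values, and 322-fold that of Mttp.

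Among neighbours in this order of levels, Apoa1 was above Apoc1 in only 2 of 4 libraries. Apoc1 was above Apoa2, and Apoa2 above Apoc3, in 4 of 4 libraries, although the ranges overlapped across livers. Apoc3 stood 4.15-fold above Apoc2, with no overlap. Apoc2 was above Apoa4, and Apoa4 above Apoa5, in 3 of 4 libraries. Apoa5, Apob and Mttp were separated from each other in every library without overlap.

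**Figure D1:**
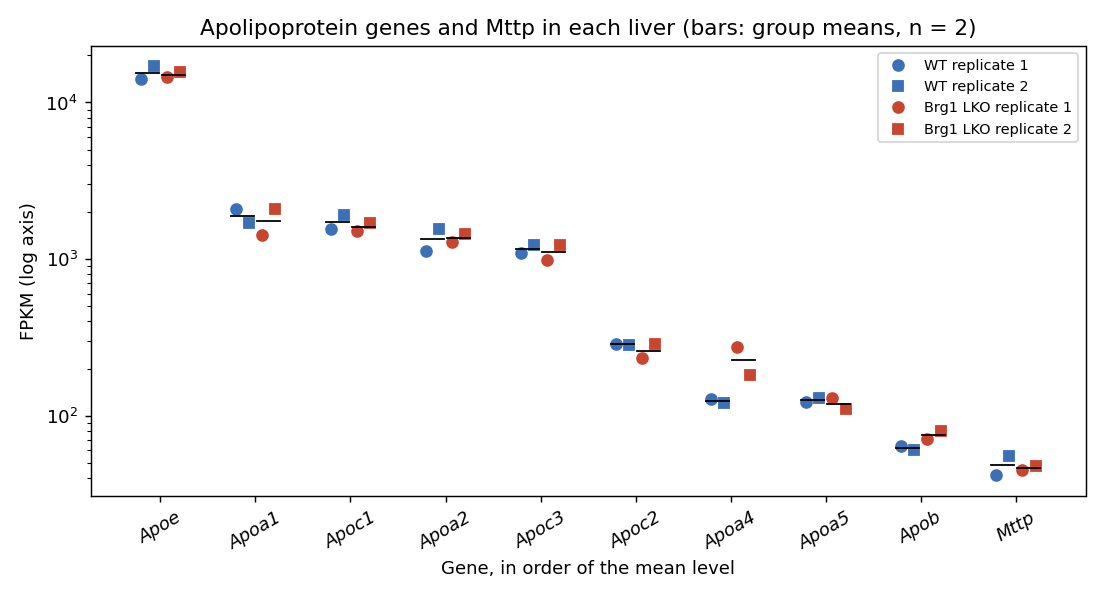
FPKM of the 10 genes in each of the 4 livers, on a log axis, with WT and Brg1 LKO livers as separate points and a line at each group mean. The points of most genes lie on top of each other, and the Brg1 LKO points of Apoa4 (181 and 275 FPKM) lie above its WT points (121 and 128 FPKM).

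Between genotypes, none of the 10 genes passed the study's threshold of an unadjusted p under 0.05 with a change of more than 2-fold, applied here to a limma fit of log2(FPKM + 0.1), against 0.980% of the 12346 genes tested. With 10 genes, a share of that size gives a count of 0 or near it. In 8 of the 10 genes the log2 difference was within 0.15 of 0, and the difference of the FPKM means was smaller than the larger of both group SDs. The median log2 difference was -0.07 over them and -0.02 over all genes tested. Without respect to sign, the median difference was 0.09 over the 10 genes, 0.17 over all genes tested and 0.13 over the 676 genes whose mean reached 40 FPKM, a level that each of the 10 genes also reached. Every adjusted p of the 10 genes was 1 (limma, Benjamini-Hochberg), and no gene of the table had an adjusted p under 0.05, so the intervals below carry what the data can say of each gene.

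Apoa4 had the largest difference of the 10. It was measured at 128 and 121 FPKM in WT and 275 and 181 FPKM in Brg1 LKO. Both Brg1 LKO livers were above both WT livers, and the WT livers lay close together while the Brg1 LKO livers differed from each other by 1.52-fold. The means were 125 ± 5.13 and 228 ± 66.4 FPKM (SD, n = 2 each), a 1.83-fold higher Brg1 LKO mean. On the opposite strand Apoa4 overlaps Gm10680 and Gm47528, which were not in the expression table. Whether the quantification used strand was not given in the sources used here.

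The log2 difference of Apoa4 was 0.84 (SE 0.33, 95% interval 0.12 to 1.55), short of 2-fold, with an adjusted p of 1 (limma, Benjamini-Hochberg). It was the only gene of the 10 with an unadjusted p under 0.05 (0.0245, limma), which 2.00% of all genes tested reached. Ordered from the most positive log2 difference down, it ranked 167 of 12346 genes, and 16 among the 676 abundant ones. The size rested in part on Brg1 LKO replicate 1, since the log2 difference was 0.54 without that library and 1.14 without Brg1 LKO replicate 2, and in the latter case Apoa4 passed the threshold.

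Apob, the structural protein of VLDL, was the other gene without overlap between genotypes. Its values were 63.7 and 60.3 FPKM in WT and 71.1 and 80.4 FPKM in Brg1 LKO. Both Brg1 LKO livers were above both WT livers, by less than for Apoa4. The means were 62.0 ± 2.46 and 75.7 ± 6.53 FPKM (SD, n = 2 each), a 1.22-fold difference. On the log2 scale the difference was 0.29 (SE 0.32, 95% interval -0.40 to 0.97), which includes no difference. Groups that did not overlap were thus found for 2 of the 10 genes, against 20.7% of all genes tested, both with higher Brg1 LKO values, against 10.7% of all genes, and neither count of 2 stood clear of these shares.

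Mttp, the lipid transfer protein needed to start the VLDL particle, was measured at 41.6 and 55.5 FPKM in WT and 44.8 and 48.1 FPKM in Brg1 LKO. Both Brg1 LKO values lay between the WT values. The log2 difference was -0.05 (SE 0.33, 95% interval -0.76 to 0.66). Mttp overlaps Trmt10a and Gm43691, and Apoa5 overlaps Gm47544, each on the opposite strand. For these genes too, whether the quantification used strand was not given.

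Apoa1, the main protein of HDL, was measured at 2091 and 1692 FPKM in WT and 1424 and 2098 FPKM in Brg1 LKO. The lowest and the highest value were both from Brg1 LKO livers, 1.47-fold apart. The log2 difference was -0.12 (SE 0.32, 95% interval -0.80 to 0.56). Apoa2, the second protein of HDL, had 1129 and 1567 FPKM in WT and 1283 and 1440 FPKM in Brg1 LKO. Here both Brg1 LKO values fell inside the WT range, and the log2 difference was 0.03 (SE 0.31, 95% interval -0.64 to 0.70).

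Of the genes that set the clearance of triglyceride-rich particles, Apoa5 had 122 and 131 FPKM in WT and 129 and 110 FPKM in Brg1 LKO. The groups overlapped, with the lowest value in Brg1 LKO replicate 2. Apoc2, the activator of lipoprotein lipase, had 287 and 285 FPKM in WT and 235 and 286 FPKM in Brg1 LKO. Brg1 LKO replicate 1 was lower than the other libraries, which were alike. Apoc3, which inhibits clearance, had 1096 and 1232 FPKM in WT and 984 and 1227 FPKM in Brg1 LKO, again with the lowest value in Brg1 LKO replicate 1 and with overlap. The log2 differences of Apoa5, Apoc2 and Apoc3 were -0.08 (SE 0.32), -0.14 (SE 0.31) and -0.08 (SE 0.30). An annotated transcript on the same strand, Gm44805, overlaps Apoc2 and was not in the table, and reads of both cannot be told apart here.

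Apoe, the ligand of remnant uptake, had 14067 and 16999 FPKM in WT and 14438 and 15656 FPKM in Brg1 LKO. Both Brg1 LKO values lay between the WT values, with a log2 difference of -0.04 (SE 0.28, 95% interval -0.65 to 0.56). Apoc1, its neighbour on chromosome 7, had 1551 and 1906 FPKM in WT and 1502 and 1700 FPKM in Brg1 LKO. The groups overlapped, and the log2 difference was -0.11 (SE 0.30, 95% interval -0.75 to 0.54). The intervals of the 8 genes with small differences reached from about -0.81 to 0.70 on the log2 scale, short of 2-fold in either direction. With 2 livers a group, differences within these bounds were not excluded.

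**Figure D2:**
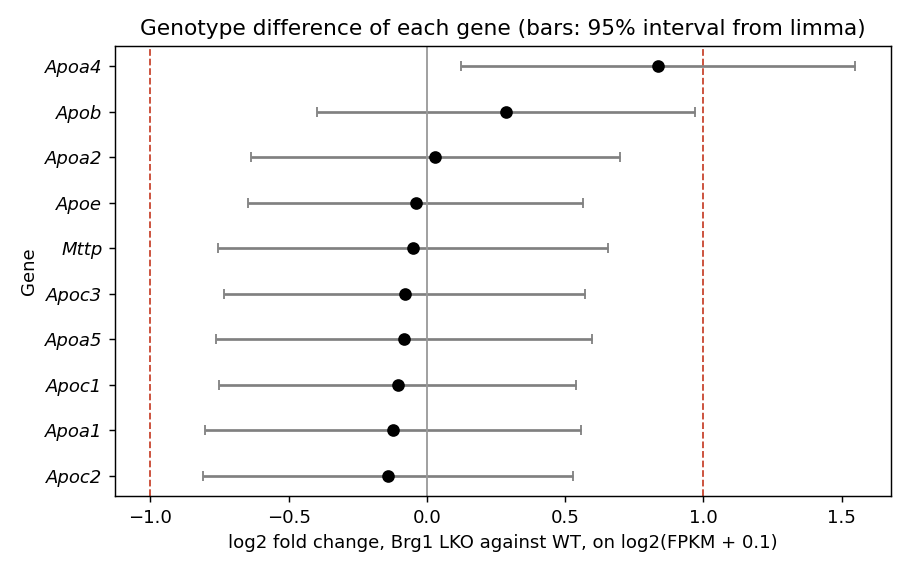
Log2 fold change of the 10 genes, Brg1 LKO against WT, with bars for the 95% interval of the limma fit and dashed lines at the 2-fold threshold. The interval of Apoa4 (0.12 to 1.55) lies above 0, and those of the other 9 genes cross 0.

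Ratios between genes of the same library do not depend on how libraries are scaled to each other, and 9 were computed. Apoa4 relative to Apoa1 was 0.0614 and 0.0716 in WT livers and 0.193 and 0.0862 in Brg1 LKO livers, a 1.94-fold difference on the log mean with no overlap. Apoa4 relative to Apob was 2.01 in both WT livers and 3.86 and 2.25 in Brg1 LKO livers, also with no overlap. Without Brg1 LKO replicate 1, the log2 differences of these ratios, 0.96 and 0.55, were 0.38 and 0.16.

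Mttp relative to Apob was 0.652 and 0.921 in WT livers and 0.630 and 0.598 in Brg1 LKO livers. The Brg1 LKO ratios were lower without overlap, by a log2 difference of -0.34 that was -0.09 without WT replicate 2. Apoc1 relative to Apoe was the steadiest ratio, at 0.110 and 0.112 in WT livers and 0.104 and 0.109 in Brg1 LKO livers, with its highest value 1.08-fold its lowest. The other 5 ratios, Apoc3, Apoa5 and Apoa2 to Apoa1, Apoc2 to Apoc1, and Apoc3 to Apoc2, overlapped between genotypes, with log2 differences of -0.03 to 0.15. An exact permutation test of 2 against 2 libraries cannot give a p below 0.333. The 4 of 9 ratios without overlap gave this p, among them Apoc1 to Apoe, which was lower in Brg1 LKO livers. With no genotype difference a ratio would lack overlap with that same probability, and both Apoa4 ratios rest on the same Apoa4 values.

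**Figure D3:**
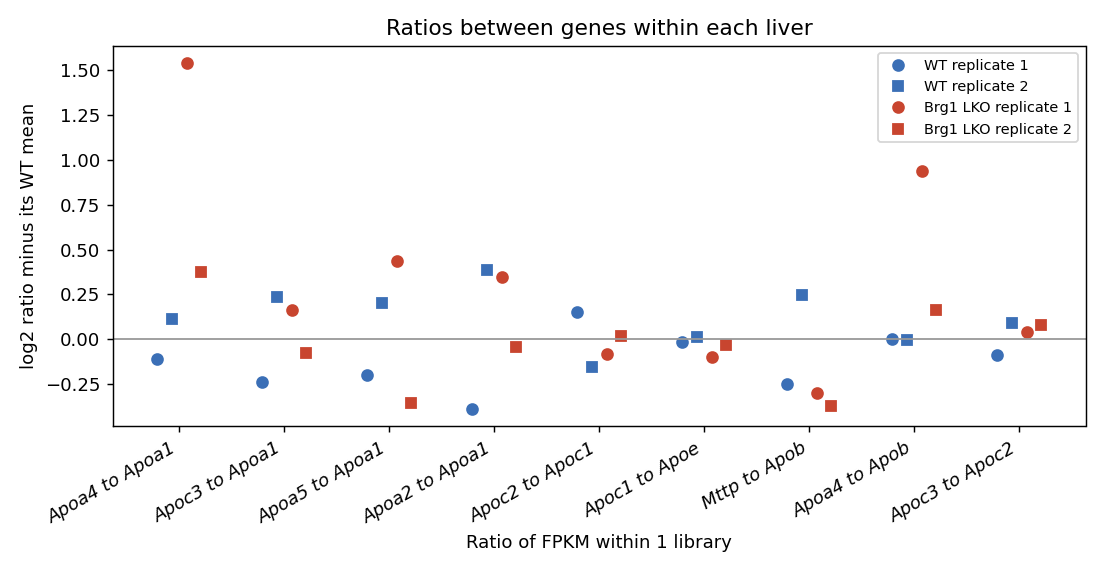
Log2 ratio of 9 pairs of genes within each library, minus the WT mean of that ratio, as points for WT and Brg1 LKO livers. The Brg1 LKO points of Apoa4 to Apoa1 and of Apoa4 to Apob lie above the WT points. Those of Mttp to Apob and of Apoc1 to Apoe lie below the WT points, and all points of Apoc1 to Apoe lie within a narrow band.

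The summed FPKM of the 10 genes was 20576 and 24048 in WT livers and 20386 and 22825 in Brg1 LKO livers. This made up 4.65% and 5.05% of the summed FPKM of the table in WT livers and 4.73% and 5.39% in Brg1 LKO livers. The sum and the share overlapped between genotypes (exact permutation test of libraries, two-sided, p = 0.667 for each). Apoe alone held 68.4% to 70.8% of the sum of the 10 genes, and Apoa4 held 0.624% and 0.504% in WT livers and 1.35% and 0.792% in Brg1 LKO livers.

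The neighbours of Apoa4 had log2 differences near 0. On chromosome 9, Apoa4 lies 12.1 kb from Apoa1 by their starts, and the log2 differences of Apoa1, Apoc3 and Apoa5 on either side of it were -0.12, -0.08 and -0.08. Of 10 further genes listed around that cluster, none passed the threshold and the median log2 difference was 0.01, from -0.21 for Bace1, a secretase, to 0.40 for Tagln, a smooth muscle gene. Without Brg1 LKO replicate 1 they were 0.06 and -0.07, and Bace1 was 0.02 without WT replicate 2. On chromosome 7, Apoc4, which lies between Apoc2 and Apoc1, had 357.7 and 449.5 FPKM in WT and 346.5 and 405.4 FPKM in Brg1 LKO. Its log2 difference of -0.10 (SE 0.31), which was 0.07 without WT replicate 2, was close to those of Apoe (-0.04), Apoc1 (-0.11) and Apoc2 (-0.14). Of 11 tested genes around the chromosome 7 cluster, Apoc4 included, none passed the threshold, with log2 differences from -0.50 for Bcam, a cell adhesion gene, to 0.15 for Clasrp. Both ends depended on single libraries, since Bcam was 0.13 without Brg1 LKO replicate 2 and -0.01 without WT replicate 2, and Clasrp was -0.06 without Brg1 LKO replicate 2.

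**Figure D4:**
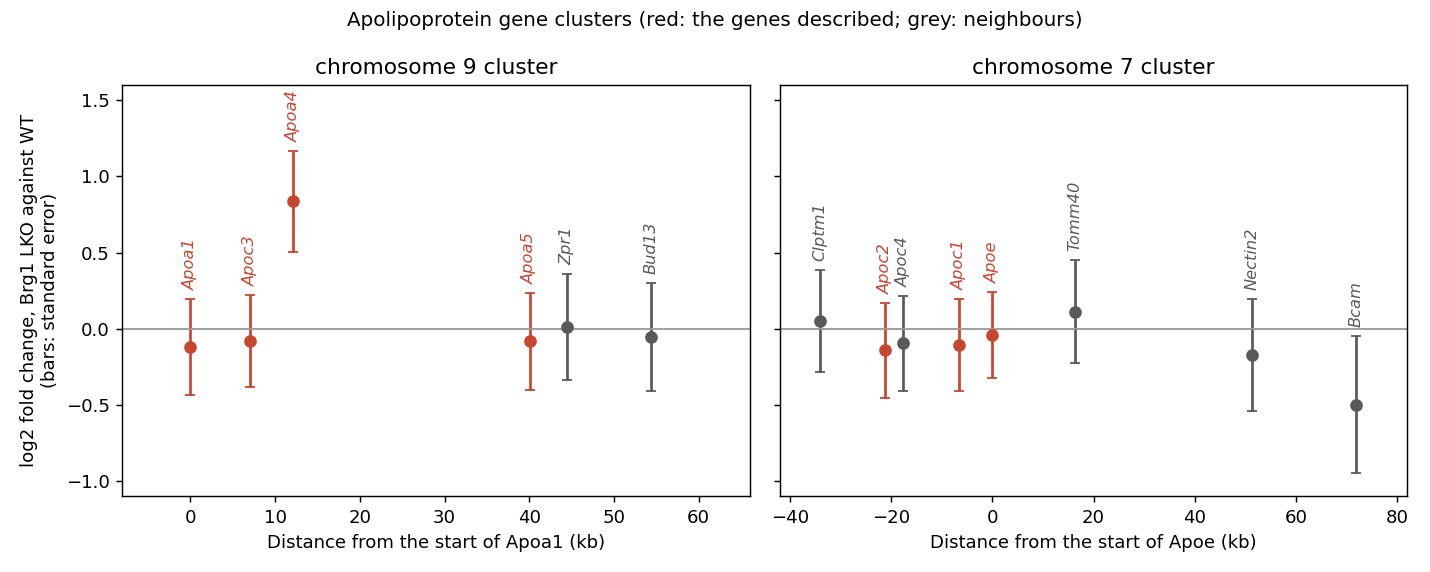
Log2 fold change, Brg1 LKO against WT, of the genes of the chromosome 9 and chromosome 7 clusters by distance in kb from the start of Apoa1 or Apoe, with bars for the standard error. In red are the genes described here and in grey their neighbours, and Apoa4 (0.84) is the only point whose bar lies above 0.

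The pathway around the 10 genes was described with 8 lists of 139 genes, of which 130 were tested. None of the 130 passed the threshold (0.980% of all genes tested), 2 had an unadjusted p under 0.05 (2.00% of all genes), and 15.4% did not overlap between genotypes (20.7% of all genes). Their median log2 difference was 0.01.

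Among 28 genes of VLDL assembly and secretion, the median log2 difference was 0.05, and 5 genes did not overlap between genotypes, each with higher Brg1 LKO values (20.7% of all genes did not overlap, and 10.7% did so with higher Brg1 LKO values). P4hb, the subunit that Mttp needs to work as a transfer protein, had 224 and 198 FPKM in WT and 230 and 396 FPKM in Brg1 LKO, a log2 difference of 0.52 (SE 0.34) that was 0.13 without Brg1 LKO replicate 2. Sec24d, a coat protein of the vesicles that leave the endoplasmic reticulum, had the largest higher value of the list, 0.80 (SE 0.35, or 0.55 to 1.05 with 1 library left out), with 6.10 and 5.05 FPKM in WT and 8.19 and 11.6 FPKM in Brg1 LKO. Surf4, a cargo receptor for lipoproteins, Mia2, which helps export large cargo, and Kif5b, a kinesin, were the other 3, named after their values were seen. At the other end Ces1d, a triglyceride hydrolase, had 84.2 and 201 FPKM in WT and 104 and 48.1 FPKM in Brg1 LKO, with overlap and a log2 difference of -0.88 (SE 0.45) that was -0.25 without WT replicate 2 and -0.32 without Brg1 LKO replicate 2. Tm6sf2, which promotes the lipidation of VLDL, had a log2 difference of 0.31 (SE 0.34) with overlap, and of 0.12 without WT replicate 1.

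The 6 genes of apoB mRNA editing, which in mouse liver yields the short form of the protein, had a median log2 difference of 0.12 and none passed the threshold. Apobec1, the deaminase, differed by -0.17 (SE 0.34) and its cofactor A1cf by 0.19 (SE 0.35). The extremes of the list were 0.26 for Rbm47, another cofactor, and -0.19 for Celf2, both with an SE above 0.32. Without 1 library, Apobec1 ranged from -0.39 to 0.06, A1cf from -0.05 to 0.42, Rbm47 from 0.04 to 0.48 and Celf2 from -0.26 to -0.13. A table of transcript totals does not show how much Apob mRNA was edited.

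Among 14 tested genes of other apolipoproteins none passed the threshold, and the median log2 difference was 0.10. The acute phase apolipoproteins varied more between livers of 1 genotype than between genotypes. Saa2 had 1826 and 95.7 FPKM in WT and 2002 and 341 FPKM in Brg1 LKO. Its WT livers were 19.1-fold apart, and its log2 difference of 0.98 (SE 0.99) was -1.15 without WT replicate 2 and -0.30 without Brg1 LKO replicate 1. Saa1, named after its values were seen, was also far higher in replicate 1 than in replicate 2 of each genotype, with 3111 and 241 FPKM in WT and 3030 and 733 FPKM in Brg1 LKO. Saa4, the constitutive form, had the largest lower value, -0.62 (SE 0.42), which was 0.09 without Brg1 LKO replicate 1. None of the 10 genes differed that much within a genotype: Apoa4 was higher in replicate 1 of each genotype, by 1.06-fold in WT and 1.52-fold in Brg1 LKO livers.

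The 12 tested genes of lipoprotein receptors and uptake had a median log2 difference of 0.14, and none passed the threshold. Lrp1, the remnant receptor, had 23.1 and 20.6 FPKM in WT and 23.2 and 33.2 FPKM in Brg1 LKO, a log2 difference of 0.35 (SE 0.34). The HDL receptor Scarb1 differed by 0.20 (SE 0.34). The list ran from -0.23 for Stab1, a scavenger receptor of sinusoidal endothelium, to 0.59 for Cd36, a fatty acid and lipoprotein receptor. Without Brg1 LKO replicate 2, Lrp1 was 0.09, Scarb1 -0.02 and Cd36 0.24, and without Brg1 LKO replicate 1 Stab1 was -0.07.

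Among 19 genes of lipases, lipid transfer and HDL maturation, the median log2 difference was -0.06 and none passed the threshold. Pltp, which transfers phospholipid to HDL, had 8.39 and 9.47 FPKM in WT and 12.0 and 19.6 FPKM in Brg1 LKO. Both Brg1 LKO livers were higher, with a log2 difference of 0.78 (SE 0.35) that was 0.42 without Brg1 LKO replicate 2. Abca1, which lipidates Apoa1, differed by 0.67 (SE 0.42) with overlap, and by 0.12 without Brg1 LKO replicate 1 and 0.28 without WT replicate 2. Lipc, the hepatic lipase, and Lcat, which esterifies HDL cholesterol, differed by 0.42 (SE 0.36) and -0.06 (SE 0.32), which became 0.0240 for Lipc without WT replicate 1 and 0.07 for Lcat without Brg1 LKO replicate 1. Angptl8, a feeding-induced regulator of lipoprotein lipase, had 13.1 and 16.0 FPKM in WT and 0.622 and 17.8 FPKM in Brg1 LKO. Its log2 difference of -2.02 (SE 0.94) came from Brg1 LKO replicate 1, which was 21.1-fold below WT replicate 1, and the value was 0.30 without it.

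Among 31 transcription regulators of apolipoprotein genes, 13 had a higher and 18 a lower Brg1 LKO mean on the log2 scale, and none passed the threshold. Hnf4a, which encodes HNF4α, had 48.9 and 53.5 FPKM in WT and 55.0 and 61.9 FPKM in Brg1 LKO. The groups did not overlap, and the log2 difference was 0.19 (SE 0.32), or 0.10 without Brg1 LKO replicate 2. Creb3l3, a known activator of Apoa4, had 51.5 and 65.8 FPKM in WT and 52.4 and 64.6 FPKM in Brg1 LKO, within the WT range. Ppara, the fatty acid receptor, had the largest difference of the list, 0.71 (SE 0.35, or 0.48 to 0.94 with 1 library left out), at 1.58 and 1.80 FPKM in WT and 2.39 and 3.34 FPKM in Brg1 LKO. Srebf1, the activator of fatty acid synthesis, differed by -0.01 (SE 0.34) and Nr1h3, the oxysterol receptor, by -0.27 (SE 0.44). Nr1h3 was 0.49 without Brg1 LKO replicate 1 and -1.04 without Brg1 LKO replicate 2, and Srebf1 ranged from -0.22 to 0.21 with 1 library left out. Mlxipl, the carbohydrate response factor, had the largest lower value, -0.55 (SE 0.44), which was 0.04 without WT replicate 2 and -0.06 without Brg1 LKO replicate 1.

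**Figure D5:**
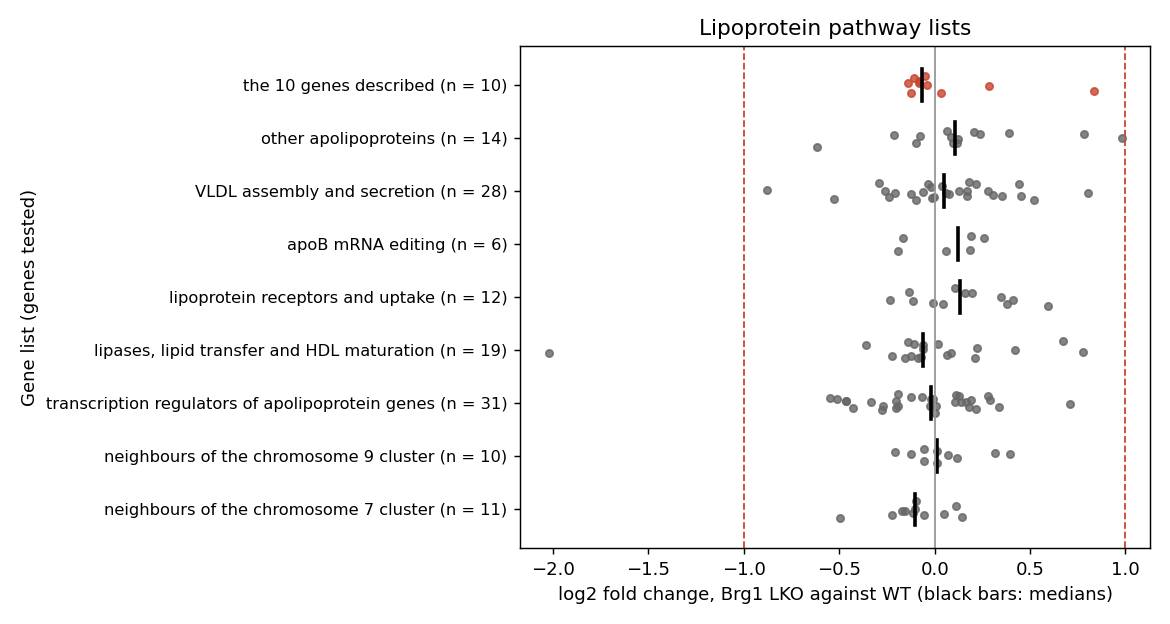
Log2 fold change, Brg1 LKO against WT, of every tested gene of the 8 pathway lists, with the 10 genes described here in red above them and a mark at each median. The medians lie between -0.10 and 0.14, and the only dot past a 2-fold line is Angptl8 (-2.02).

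Cell type markers and single libraries moved beside the Apoa4 result, and their part in it was not tested. All 11 macrophage markers had a higher Brg1 LKO mean, 3 of them past the threshold (0.980% of all genes), with a summed level of 48.8 and 49.9 FPKM in WT and 63.2 and 139 FPKM in Brg1 LKO. Without Brg1 LKO replicate 2, of these 3 genes, Cd68 was 1.05, Cd5l 0.25 and Vsig4 0.15 on the log2 scale, and another marker, Timd4, was -0.25. The order of the Brg1 LKO livers was the opposite of that for Apoa4, which was highest in replicate 1. All 10 markers of sinusoidal endothelium had a lower Brg1 LKO mean on the log2 scale, none past the threshold, with a median log2 difference of -0.25. Their summed level was 34.7 and 36.7 FPKM in WT and 25.9 and 37.6 FPKM in Brg1 LKO, lowest in the liver with the highest Apoa4. Without that liver, Brg1 LKO replicate 1, Lyve1 (-0.48) and Pecam1 (-0.47) stayed lower. The other endothelial markers were then higher, from 0.12 for Oit3 to 0.58 for Kdr. Hepatocyte markers, of which 5 of 8 had a higher Brg1 LKO mean, summed to 34316 and 27157 FPKM in WT and 30633 and 33393 FPKM in Brg1 LKO. Of 8 markers of enterocytes, which also make Apoa4, Sis, Cdx2, Cdx1 and Rbp2 were listed at 0 in all 4 libraries. Vil1 had 0 to 4 estimated reads per library. Lct had 2 in Brg1 LKO replicate 1 alone, and Alpi had 1 in Brg1 LKO replicate 2 alone. Fabp2 was the only marker of the 8 above the filter on low values, at 5.12 to 7.96 FPKM. Its Brg1 LKO mean was 1.20-fold the WT mean, with overlap between genotypes.

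The 10 genes did not move as 1 group across livers. Their mean profile, centred on the 4 libraries, was -0.09, 0.04, -0.03 and 0.08 log2 units in WT replicates 1 and 2 and Brg1 LKO replicates 1 and 2. Apoe lay closest to it, with a root mean square distance of 0.0705 log2 units, and Apoa4 farthest, at 0.471. Outside the 10 genes, the 5 nearest profiles among 7723 genes whose mean reached 1 FPKM were those of Insr, Selenof, Col18a1, Pccb and Stx12, at distances of 0.00718 to 0.0162 over the 4 libraries. These distances are a description, with no test.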

How the data were processed

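Whole liver RNA-seq of 2 WT and 2 Brg1 LKO mice was analysed; labels gave genotype and replicate number. The authors trimmed reads with Trimmomatic and mapped them with HISAT2 to GRCm38; the deposited values are FPKM, computed with Cufflinks by the methods, while the submitters' processing notes name HISAT2 2.0.4 and StringTie 2.1.4. The methods name a stranded Illumina library and the labels a BGIseq protocol. FPKM depend on the rest of the library, and no scaling between libraries is stated.

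The limma package 3.58.1 (R 4.3.3, eBayes with trend, two-sided) was run on log2(FPKM + 0.1), with genotype as the only term, for the 12346 genes whose mean reached 0.1 FPKM. The threshold was the study's, an unadjusted p under 0.05 and a log2 change beyond 1; p-values were Benjamini-Hochberg adjusted over all genes tested. Fold changes on this scale understate those of low genes. SD and SE describe 2 livers a group. The count test of the study was not run, since the values are FPKM. Library totals came from FPKM steps of transcripts of at least 2000 bases, where 88.5% to 89.7% of values under 20 reads lay within 0.1 of a whole read. Angptl8 stood under an older symbol.

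The members and lists were chosen with earlier results of these data known. Named were the 10 genes, from each list those past the threshold, the largest higher and lower value and 20 set genes such as Apoc4, Hnf4a and Ppara (a few are not reported here), and the 5 genes of nearest profile; motifs were chosen after the sequences were seen. Alternatives were pseudocounts of 1 and 0.01, no filter and a mean of 1 FPKM, median-ratio and quantile scaling, no trend, a replicate block, and each library left out. Steps were tested on simulated data.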

Additional observations from a re-analysis of the deposited data

How the results depend on the processing

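The count of genes past the threshold, 121, was 18 with a pseudocount of 1, 80 without a filter, 68 with a filter at 1 FPKM, and 73 to 557 with a library left out. The count among the 10 genes was 0 in every alternative except without Brg1 LKO replicate 2, where Apoa4 passed (0 to 1 over left-out libraries). The log2 difference of Apoa4 was positive in all 12 alternatives, 0.54 to 1.14. Apob was higher in all 12 (0.20 to 0.37) and Apoc2 lower in all 12 (-0.33 to -0.00103). For Apoa4 and Apob, whose groups did not overlap, only median-ratio and quantile scaling could have turned the sign. The other alternatives keep the order of the libraries. The Apoc2 value of -0.00103, almost no difference, was that without Brg1 LKO replicate 1. Smarca4 was -0.85 with a pseudocount of 1, no longer past 2-fold.

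Directions turned under quantile scaling for Apoa2 (-0.19), Apoe (0.17) and the summed level (0.0443 on the log2 scale). With 1 library left out, log2 differences ranged from -0.40 to 0.16 for Apoa1, -0.21 to 0.27 for Apoa2, -0.20 to 0.0334 for Apoa5, -0.25 to 0.0430 for Apoc1, -0.24 to 0.0790 for Apoc3, -0.18 to 0.10 for Apoe, -0.26 to 0.16 for Mttp, -0.15 to 0.0705 for the summed level and -0.15 to 0.0695 for the median of the 10. The ratios to Apoa1 ranged over -0.20 to 0.28 for Apoc3, -0.36 to 0.43 for Apoa5 and -0.24 to 0.54 for Apoa2, Apoc2 to Apoc1 over -0.19 to 0.12 and Apoc3 to Apoc2 over -0.0286 to 0.15. In each of the 8 pathway lists, 0 to 4 genes passed the threshold with 1 library left out. The cause was not tested.

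With the replicate number as a block, 0 of the 10 genes and 108 of all genes passed. The log2 differences cannot change in that fit, since each genotype holds both replicate numbers. Same-numbered WT and Brg1 LKO livers deviated with a correlation of 0.03 over 12346 genes, which cannot show a shift shared by all genes. Median-ratio factors were 0.911 and 1.13 in WT replicates 1 and 2 and 0.885 and 1.11 in Brg1 LKO, lower in replicate 1 of both. The numbers were not taken as a pairing in the main fit, and whether they mark a batch was not tested. With 2 livers a group, p-values rest on spread borrowed across genes.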
